A study of Mus musculus with 6 samples.

Results

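Mitochondrial ribosomal protein genes encode, in the nucleus, the proteins of the ribosome that works inside mitochondria. They were taken by symbol, Mrpl for the large subunit or Mrps for the small subunit followed by a digit, which matched 81 of the 22246 genes measured. After 4 pseudogenes were left out, 77 genes remained, 48 named Mrpl and 29 named Mrps, and all 77 had a mean level high enough to be tested. The gene expression data are RNA sequencing of HL-1, a mouse cell line derived from atrial heart muscle cells and labelled here as C57BL/6 heart. It is a single immortalized line, so no second line or animal is represented. There were 3 libraries of cells given a control shRNA and 3 libraries labelled Smyd4 shRNA, a short hairpin RNA meant to lower Smyd4, a gene of the SMYD family of methyltransferases. Both groups are the same line carrying an shRNA, and the labels give no time after shRNA delivery. They also do not say that replicate libraries are separate cultures. The p-values therefore measure the spread between these libraries, which may be technical.

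The mitochondrial ribosome makes the few membrane proteins of the respiratory chain that the mitochondrial genome still encodes. Its rRNAs are transcribed from mitochondrial DNA, whereas its proteins are made in the cytosol and imported. Some of these proteins descend from bacterial ribosomal proteins and others are found in mitochondria only. Heart muscle depends heavily on respiration, and defects of human MRPL3, MRPL44, MRPS14 and MRPS22 have been linked to inherited cardiomyopathy.

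The recovered reads amounted to at least 20755031 to 26386562 per library. Over the 67 mitochondrial ribosomal protein genes whose length is known, a gene held 173 to 3402 reads in a library, a counting error of 7.60% at the lowest and 1.71% at the highest. For the other 10 genes the reads recovered are a lower bound, set by the smallest length that gives whole reads. Levels are given in FPKM (fragments per kilobase, scaled between libraries by size factors), and changes as log2 of FPKM + 0.5, which slightly understates the change of low genes. The targeted gene was measured first. Smyd4 stood at 12.5, 12.8 and 13.5 FPKM in the control libraries and at 12.6, 12.3 and 11.9 FPKM in the libraries labelled Smyd4 shRNA. The groups overlapped, and the log2 change of -0.07 (SE 0.04) did not pass the test (limma, Benjamini-Hochberg adjusted p = 0.173; exact permutation test, two-sided, p = 0.2, where 0.1 is the smallest p that 3 against 3 libraries can give). Because Smyd4 mRNA does not separate the groups, the treated group is called by its label throughout. The heart markers were low for this line: of 10 cardiomyocyte markers in the table, Tnnt2, Nkx2-5 and Gata4 reached 1 FPKM, while Actc1, Myh6, Myl4, Ryr2 and Ttn were near 0 and Myl7 and Tbx5 were listed at 0 in all 3 control libraries. The cardiomyocyte markers summed to 18.7 to 19.7 FPKM in control and 28.1 to 29.4 FPKM in the labelled libraries, skeletal muscle markers to 87.6 to 90.4 and 20.0 to 21.7 FPKM, and fibroblast markers to 128 to 130 and 154 to 164 FPKM. Of those tested, all 3 cardiomyocyte markers were higher, all 4 skeletal muscle markers were lower, and of 4 fibroblast markers 2 were higher and 2 lower (limma). Endothelial markers summed to at most 0.567 FPKM and macrophage markers to 2.05 to 2.35 FPKM in control and 2.44 to 5.53 FPKM in the labelled libraries, with Ptprc and Adgre1 listed at 0 in control. In bulk samples fewer cells of a type and less RNA per cell cannot be told apart, and the part of these shifts in the results on ribosomal protein genes was not tested.

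Among the 77 genes, 35 were higher in the libraries labelled Smyd4 shRNA, 3 were lower and 39 did not pass (limma, Benjamini-Hochberg adjusted p under 0.05). Over all 11325 genes tested 48.3% were called, 25.1% as higher and 23.3% as lower, so the share of mitochondrial ribosomal protein genes called was near the background while the calls lay mostly on the higher side, at 45.5% higher. The median log2 change of the 77 genes was 0.11, against 0.02 for all tested genes and 0.02 for the 9627 tested genes within the same range of levels, of which 26.3% were higher and 24.0% lower. The changes were small. They ran from -0.34 for Mrpl33 to 0.33 for Mrpl57, and no gene of the 77 reached a change of 1.5-fold, which 6.91% of all tested genes did while also being called. The 35 genes that rose did so by 6.00% to 27.1%, with a median of 12.7%. The labelled libraries lay wholly above the control libraries for 36 of the 77 genes and wholly below for 6, where all tested genes gave 30.2% and 27.6% (57.8% in either direction), and for the other 35 genes the groups overlapped.

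**Figure D1:**
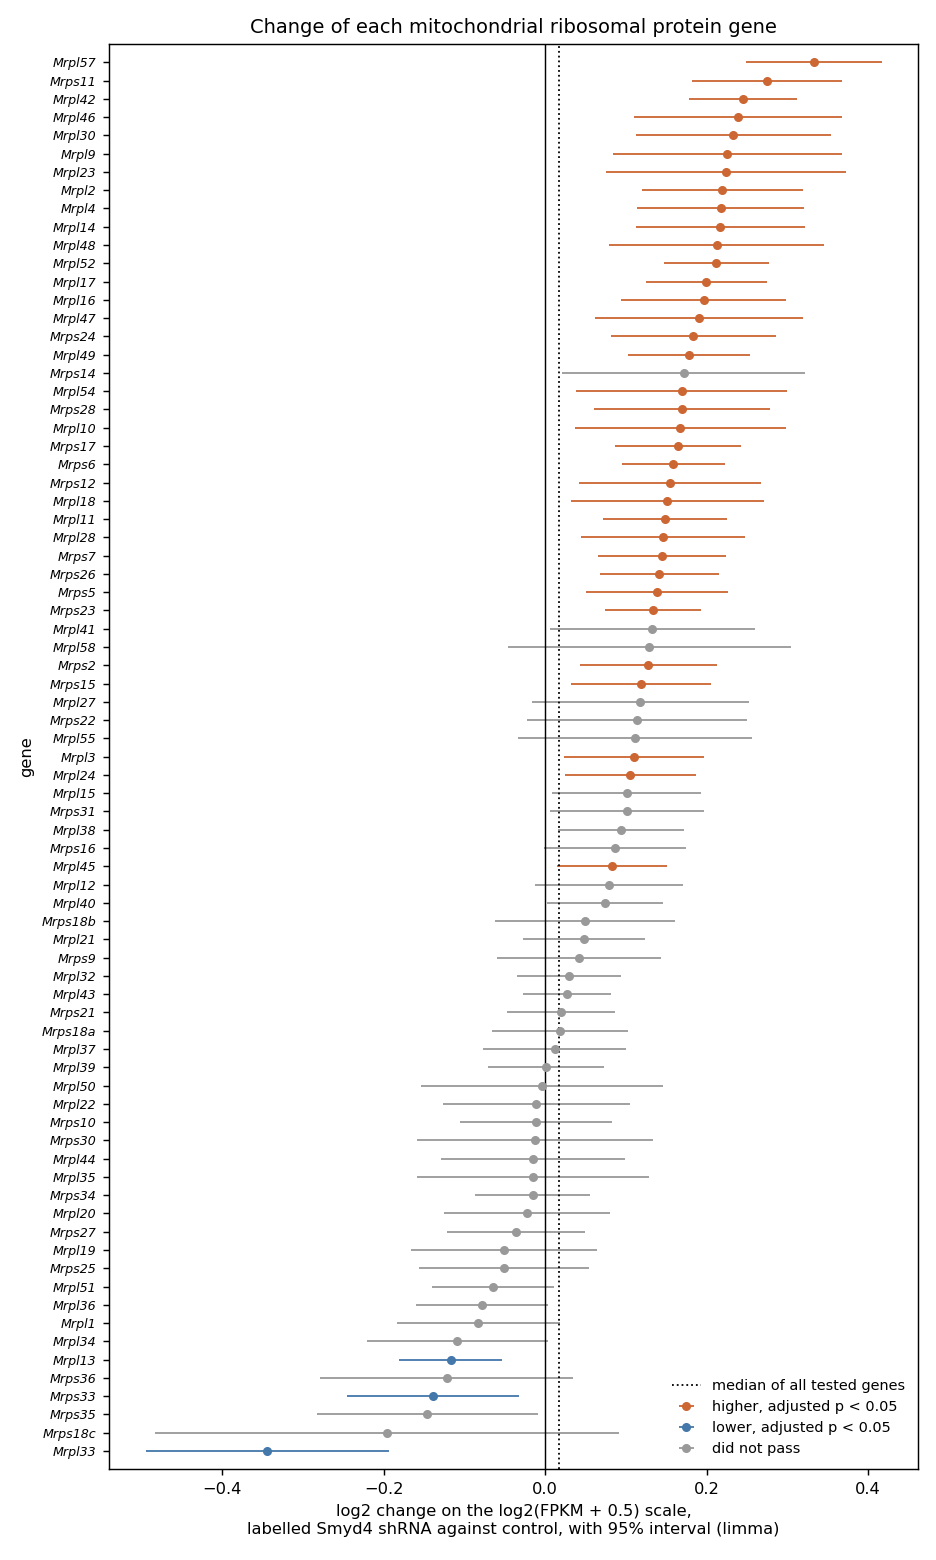
Log2 change of each of the 77 mitochondrial ribosomal protein genes, on the log2(FPKM + 0.5) scale, as a point with its 95% interval from limma. Genes run from Mrpl33 at -0.34 at the bottom to Mrpl57 at 0.33 at the top, the 35 higher genes are orange, the 3 lower genes blue and those that did not pass grey, and the dotted line is the median of all tested genes at 0.02.

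Added together, the 77 genes gave 1838, 1840 and 1921 FPKM in the control libraries and 2066, 1991 and 2020 FPKM in the labelled libraries. The lowest labelled sum lay above the highest control sum, and the mean moved from 1866 ± 47.3 to 2026 ± 37.7 FPKM (SD, n = 3 each), a difference of 8.54%. As a share of the summed FPKM of all genes this was 0.540%, 0.540% and 0.549% in control and 0.580%, 0.573% and 0.572% in the labelled libraries. The libraries of a group did not vary alike: control library 3 held the highest control value for 50 of the 77 genes, labelled library 1 the highest labelled value for 42, and labelled library 2 the lowest labelled value for 45. Leaving out control library 2 or labelled library 1 lowered the count of higher genes from 35 to 20 in each case. The share of all 11325 tested genes called fell too, from 48.3% to 40.4% and 42.3%.

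Levels spanned 74.5-fold between genes. Mrpl42, a mitochondria-specific protein of the large subunit, was the highest at a mean of 161 FPKM over the 6 libraries, followed by Mrps21 at 83.6, Mrps16 at 81.7, Mrpl52 at 67.4 and Mrpl28 at 64.3 FPKM, and these 5 genes made up 23.5% of the summed level. Over all 6 libraries the ranges of Mrps21 and Mrps16 overlapped, as did those of Mrpl52 and Mrpl28. Within a group they did not always overlap. In control, Mrps21 (81.4 to 84.9 FPKM) lay wholly above Mrps16 (77.5 to 80.9 FPKM). In the labelled libraries, Mrpl52 (71.4 to 74.0 FPKM) lay wholly above Mrpl28 (66.3 to 69.7 FPKM). Each pair overlapped in the other group. The lowest were Mrpl33 at 2.16, Mrps35 at 2.67 and Mrpl35 at 2.88 FPKM. Mrpl33 lay wholly below Mrps35 in control (2.37 to 2.59 against 2.71 to 3.02 FPKM). The same held in the labelled libraries (1.79 to 1.95 against 2.48 to 2.53 FPKM). Mrps35 and Mrpl35 overlapped in control but not in the labelled libraries. Of the 77 genes, 65 lay between 5 and 50 FPKM, with 8 above and 4 below. FPKM divides by a gene length that the authors chose. For 29 genes their table gives it, and for 38 others the values fit the joined length of all annotated exons in GENCODE M21. For the remaining 10 genes, Mrps16 among them, the length is not known. The known lengths ran from 666 to 8631 bases. The 18 genes longer than 4000 bases had a median of 6.38 FPKM, against 25.6 FPKM for the 49 shorter ones. How far the length used sets the order of levels was not tested. The top rank of Mrpl42 rests on the authors' deposited length of 666 bases, where its joined exons in GENCODE M21 span 3682 bases.

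**Figure D2:**
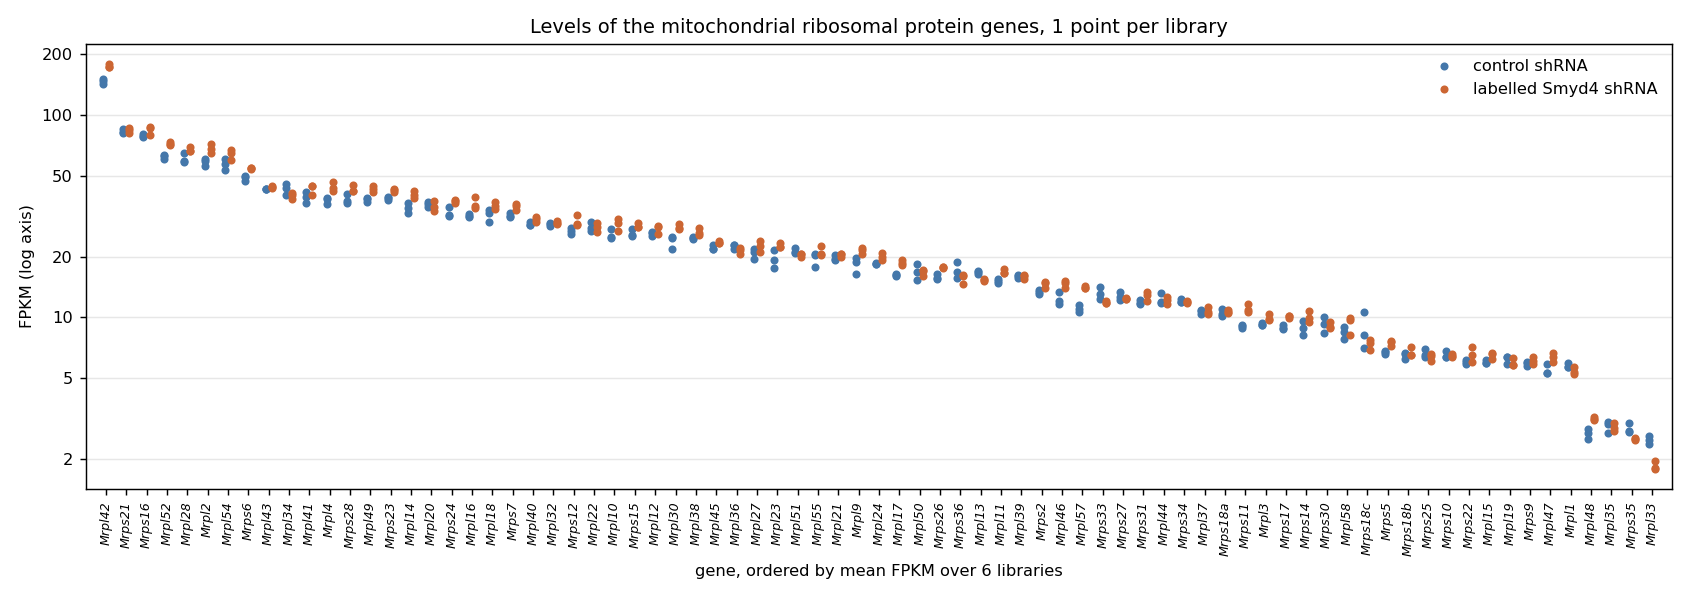
FPKM of the 77 genes in each of the 6 libraries on a log axis, ordered by mean level, with control libraries in blue and libraries labelled Smyd4 shRNA in orange. Levels fall from Mrpl42 at a mean of 161 FPKM to Mrpl33 at 2.16 FPKM, and the distance between groups is small against the distance between genes.

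Promoter sequences were compared next, for the 4 largest rises and the largest fall. RefSeq windows of GRCm38.p6, from 250 bases before to 50 bases after the annotated start, were found for 68 of the 77 genes. They were searched on both strands for 3 motifs tied in the literature to nuclear genes for mitochondrial proteins: GCGCA, any base and GCGC (the NRF1 type), CCGGAAG (the ETS or GABP type) and AAGATGGC (the YY1 type). Capitals mark a match, printed 5′ to 3′ on the strand of the gene, and a match in the opposite direction appears as its reverse complement.
Mrpl57, chr14:57825989-57826288, plus strand: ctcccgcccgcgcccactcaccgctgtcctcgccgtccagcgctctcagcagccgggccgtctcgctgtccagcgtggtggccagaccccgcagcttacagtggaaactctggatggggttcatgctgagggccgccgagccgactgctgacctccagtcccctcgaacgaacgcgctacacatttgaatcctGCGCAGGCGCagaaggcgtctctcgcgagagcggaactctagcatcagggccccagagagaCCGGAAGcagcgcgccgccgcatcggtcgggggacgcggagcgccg
Mrps11, chr7:78782881-78783180, plus strand: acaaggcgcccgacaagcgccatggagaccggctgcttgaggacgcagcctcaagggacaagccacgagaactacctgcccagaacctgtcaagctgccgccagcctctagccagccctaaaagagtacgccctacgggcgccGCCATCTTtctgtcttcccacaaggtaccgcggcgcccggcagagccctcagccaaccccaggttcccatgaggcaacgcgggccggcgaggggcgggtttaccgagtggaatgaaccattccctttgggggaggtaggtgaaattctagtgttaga
Mrpl42, chr10:95501900-95502199, minus strand: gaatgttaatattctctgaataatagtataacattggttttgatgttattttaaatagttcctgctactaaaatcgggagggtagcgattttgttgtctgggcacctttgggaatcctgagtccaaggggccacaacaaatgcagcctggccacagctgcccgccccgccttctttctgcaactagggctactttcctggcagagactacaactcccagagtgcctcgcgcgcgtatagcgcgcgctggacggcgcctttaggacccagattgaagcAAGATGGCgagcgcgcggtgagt
Mrpl46, chr7:78783040-78783339, minus strand: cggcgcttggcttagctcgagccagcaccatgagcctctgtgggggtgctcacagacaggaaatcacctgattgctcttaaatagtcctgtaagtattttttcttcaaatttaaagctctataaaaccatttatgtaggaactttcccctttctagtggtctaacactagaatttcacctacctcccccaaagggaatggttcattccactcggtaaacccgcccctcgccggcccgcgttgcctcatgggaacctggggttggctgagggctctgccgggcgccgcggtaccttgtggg
Mrpl33, chr5:31613701-31614000, plus strand: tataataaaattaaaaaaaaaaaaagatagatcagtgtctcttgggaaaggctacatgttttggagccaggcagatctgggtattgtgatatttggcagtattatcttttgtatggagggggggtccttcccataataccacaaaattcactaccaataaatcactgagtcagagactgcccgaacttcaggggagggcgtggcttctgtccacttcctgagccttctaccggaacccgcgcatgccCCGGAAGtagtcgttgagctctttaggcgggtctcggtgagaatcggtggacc
Counted from the RefSeq start site, the Mrpl57 window held the NRF1-type motif at -57 and the ETS-type motif at 5, the Mrps11 window a YY1-type motif in the opposite direction at -107, the Mrpl42 window a YY1-type motif at 28 and the Mrpl33 window an ETS-type motif at -3. The Mrpl46 window held none of these letters. The YY1-type match in the Mrps11 window lies just past the end of the Mrpl46 window and reads AAGATGGC on the strand of Mrpl46. The RefSeq start of Mrpl33 lies inside the longer span that the Ensembl gene has in the expression table. By the gene coordinates given below, Mrps11 and Mrpl46 lie on opposite strands with overlapping 5′ ends. By the RefSeq starts they diverge without overlap, and their windows share 141 bases.

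Over the 68 genes with a window, 42 held at least 1 of the 3 motifs (61.8%), against 35.3% of the 8380 tested genes with a window and 16.4% of all 27025 genes with one. The ETS-type motif was in 25 (36.8%, against 22.0% of tested and 9.93% of all genes), the NRF1-type motif in 13 (19.1%, against 12.6% and 5.19%) and the YY1-type motif in 12 (17.6%, against 5.81% and 3.19%). Within the 68, a motif was present for 18 of the 32 genes called higher, for 22 of the 34 that did not pass and for both genes called lower with a window, Mrpl33 and Mrps33. These are counts of letters in a window and say nothing on binding of a factor. A divergent neighbour was also common: 18 of the 77 genes (23.4%) started within 1000 bases of a gene transcribed in the opposite direction, against 8.80% of 15469 protein-coding genes in the table and 11.0% of those tested. The starts used for this count are those of GENCODE M21, under which Mrps11 and Mrpl46 overlap and are not counted.

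Most divergent partners were not called. Of the 18 partners, 2 were higher, 2 were lower, 11 did not pass and 3 were not tested. Over all tested genes 48.3% were called, 25.1% as higher and 23.3% as lower, so partners were called less often than genes at large. Ska3, whose product binds kinetochores, starts 49 bases from Mrpl57 and rose with it from 14.5 to 16.8 FPKM (limma adjusted p = 0.0104). Fau, which encodes a ubiquitin-like protein fused to a cytosolic ribosomal protein, starts 59 bases from Mrpl49 and went up from 696 to 754 FPKM (limma adjusted p = 0.0328). Mrpl49 itself rose from 38.1 to 43.2 FPKM. Klc4, a kinesin light chain gene that starts 207 bases from Mrpl2, fell from 8.06 to 6.91 FPKM (limma adjusted p = 0.0184) while Mrpl2 rose. Ptcd2 fell from 16.5 to 14.8 FPKM (limma adjusted p = 0.0318) beside Mrps27, which went from 12.7 to 12.4 FPKM and did not pass.

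Among the mitochondria-specific proteins of the large subunit, 8 of 20 were higher and 12 missed the threshold. Their median log2 change was 0.09. Mrpl57 (ENSMUSG00000021967, GRCm38 chr14:57826239-57828745), a small protein of the large subunit, stood at 10.6, 11.5 and 11.1 FPKM in control and 14.0, 14.3 and 13.9 FPKM in the labelled libraries. All labelled values lay above all control values, and the rise of 27.1%, a log2 change of 0.33 (SE 0.04), was the largest of the 77 (limma adjusted p = 0.00017). Mrpl42 (chr10:95480806-95501927) went from 143, 147 and 151 FPKM to 172, 173 and 178 FPKM. As the most abundant member it rose by 18.6%, or 0.24 on the log2 scale (SE 0.03, limma adjusted p = 0.000262), again with no overlap. Mrpl52 read 63.6, 60.7 and 63.0 FPKM in control and 71.4, 74.0 and 71.8 FPKM in the labelled libraries, a log2 change of 0.21 (limma adjusted p = 0.000517).

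Mrpl46 (chr7:78775236-78783531), a protein of the central protuberance, the knob on the large subunit that faces the small one, was at 12.1, 11.6 and 13.4 FPKM in control and 15.2, 14.0 and 14.8 FPKM in the labelled libraries (log2 change 0.24, SE 0.06, limma adjusted p = 0.0087). Mrpl48 of the same structure rose from 2.67 to 3.17 FPKM (limma adjusted p = 0.0171, and 0.058 without control library 2), although a processed copy left out above, Mrpl48-ps, was also higher, at 12.6 and 14.1 FPKM, and reads of the pair may be exchanged. With Mrpl18, whose call was lost in 9 of 16 alternative settings, 3 of 6 proteins of the central protuberance were higher, while Mrpl38, Mrpl40 and Mrpl55 did not pass. Around the exit of the tunnel through which the new protein leaves, 5 of 9 were higher: Mrpl17, Mrpl23, Mrpl24, Mrpl45, which anchors the ribosome to the inner membrane, and Mrpl47. Mrpl22, Mrpl39, Mrpl44 and Mrpl50 from the same region did not pass. Of these 5 calls, that of Mrpl17 held in all 16 alternative settings. The call of Mrpl45 was lost in 11 of the 16 and that of Mrpl24 in 9, edgeR and DESeq2 included for both, that of Mrpl47 in 6 and that of Mrpl23 in 3, with losses for each without control library 2 and without labelled library 1.

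Among the bacterial-type proteins of the large subunit, 15 of 30 were higher, 2 were lower and 13 missed the threshold. Their median log2 change was 0.11. Mrpl2, whose bacterial counterpart helps form the peptidyl transferase centre, read 59.1, 56.1 and 60.9 FPKM in control and 71.8, 65.2 and 68.3 FPKM in the labelled libraries (limma adjusted p = 0.0039). Mrpl4, which in bacteria lines the exit tunnel, went from 37.9 to 44.2 FPKM (limma adjusted p = 0.00492). Mrpl14, the docking site of the assembly factor Malsu1 on the face between subunits, went from 34.8 to 40.5 FPKM (limma adjusted p = 0.00522). In none of these 3 did the groups overlap.

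Mrpl30 rose from 23.8 to 28.0 FPKM (limma adjusted p = 0.00718), Mrpl9 from 18.3 to 21.4 FPKM (limma adjusted p = 0.017) and Mrpl23 from 19.4 to 22.7 FPKM (limma adjusted p = 0.0215). Mrpl28, the fifth most abundant gene, rose from 61.0 to 67.5 FPKM (limma adjusted p = 0.0258). Without labelled library 1 the calls of Mrpl9, Mrpl23 and Mrpl28 were lost (limma adjusted p = 0.0513, 0.0699 and 0.0833), without control library 2 those of Mrpl23 and Mrpl28 (limma adjusted p = 0.0605 and 0.0877), and without control library 1 that of Mrpl28 (limma adjusted p = 0.084). The stalk that recruits translation factors was represented by 4 genes, of which Mrpl10, Mrpl11 and Mrpl54 were higher. Mrpl11 kept its call in all 16 alternative settings, while Mrpl10 and Mrpl54 each lost it in 7, among them the fits without control library 1, control library 2 or labelled library 1 (adjusted p up to 0.124 and 0.12 over the 16 settings, limma, edgeR and DESeq2 included). Mrpl12, the stalk protein that also binds the mitochondrial RNA polymerase, was at 25.9 and 27.4 FPKM and did not pass (limma adjusted p = 0.138). Mrpl10 and Mrpl54 were the only called genes of the 77 whose groups overlapped.

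Of the 3 genes that fell, Mrpl33 and Mrpl13 are of the bacterial type and large subunit, and Mrps33 is a mitochondria-specific protein of the small subunit. Mrpl33 (chr5:31596935-31664384) was at 2.37, 2.59 and 2.47 FPKM in control and at 1.80, 1.95 and 1.79 FPKM in the labelled libraries, from 271 to 459 reads each. Every labelled value lay below every control value, and the log2 change of -0.34 (SE 0.07, limma adjusted p = 0.00314) was the largest of the 77 in size. Mrpl13 (chr15:55534094-55557748) was at 16.5, 16.7 and 16.9 FPKM in control and 15.5, 15.2 and 15.3 FPKM in the labelled libraries. It fell by 0.12 on the log2 scale (limma adjusted p = 0.00914) with no overlap, and its exons overlap Mtbp on the opposite strand. Mrps33 was at 13.1, 12.4 and 14.1 FPKM in control and 11.8, 11.8 and 12.1 FPKM in the labelled libraries (log2 change -0.14, SE 0.05, limma adjusted p = 0.0376). The Mrps33 call was lost in 9 of 16 alternative settings, among them the fits without control library 1 or 3 and without any 1 of the 3 labelled libraries, and over the 16 its adjusted p ran from 0.0138 to 0.141.

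**Figure D3:**
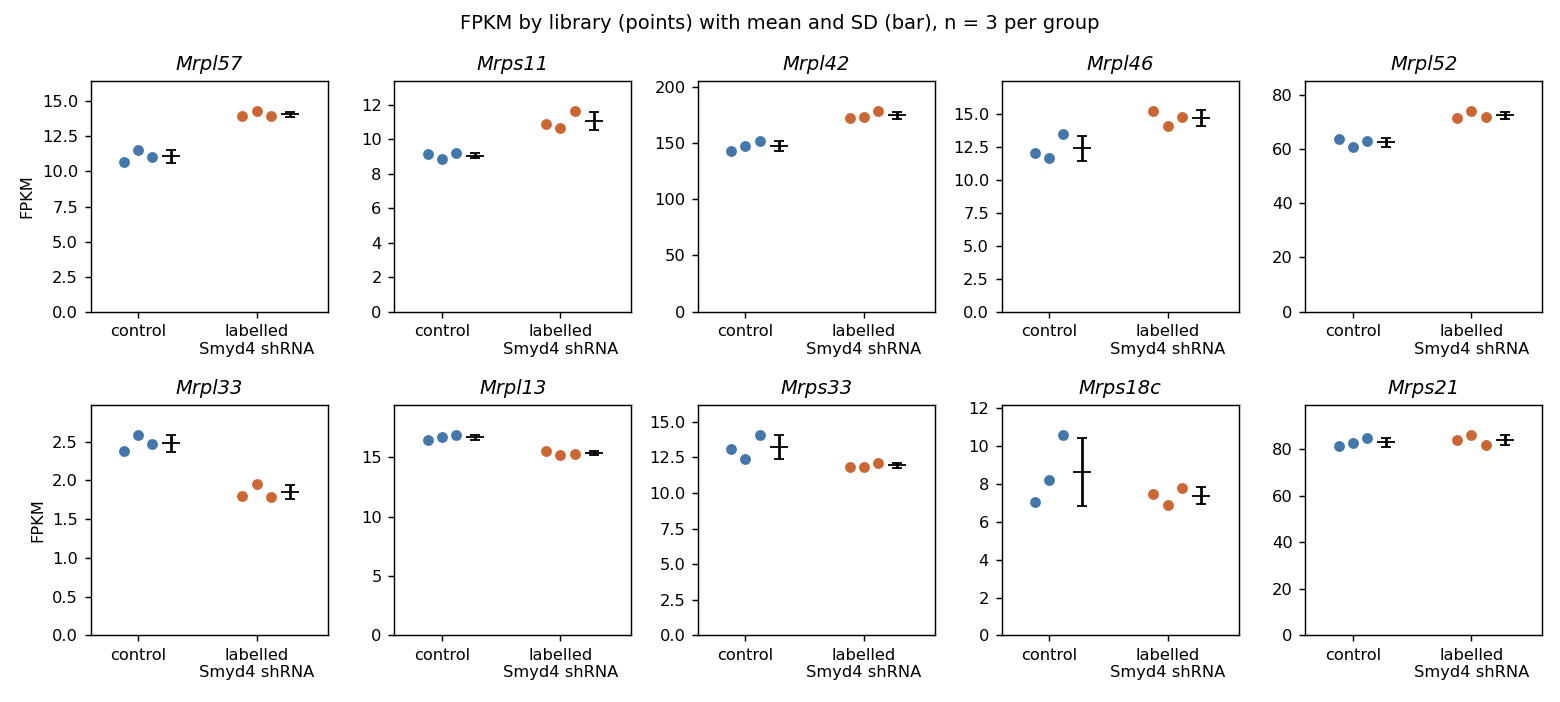
FPKM of 10 genes in each library, with the mean and SD of 3 libraries as a bar beside the points. The upper row shows 5 genes that rose, such as Mrpl57 from a mean of 11.1 to 14.1 FPKM. The lower row shows the 3 that fell and 2 that did not pass, Mrps18c with a wide control range of 7.07 to 10.6 FPKM and Mrps21 with close groups.

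Among the bacterial-type proteins of the small subunit, 10 of 16 were higher and 6 missed the threshold, and the median log2 change was 0.14. Mrps11 (chr7:78783119-78792989) was at 9.12, 8.86 and 9.19 FPKM in control and 10.9, 10.7 and 11.6 FPKM in the labelled libraries. The groups did not overlap, and the log2 change of 0.27 (SE 0.04, limma adjusted p = 0.000865) was the second largest rise. Mrps11 and Mrpl46 share 173 exon bases on opposite strands, and since the sources used here do not say whether counting used strand, reads of the pair may be mixed. All 5 genes listed for the decoding centre and the path of the mRNA were higher: Mrps5, Mrps7, Mrps11, Mrps12, which in bacteria checks the match of codon and anticodon, and Mrps24. Of all tested genes 25.1% were higher, and this short list was chosen with earlier results of these data known. It is not a full set of the proteins at that site, so 5 of 5 describes the list only. Of the 16 bacterial-type genes it was drawn from, 10 were higher and 6, Mrps21 and Mrps18c among them, did not pass. The call of Mrps12 was lost in 7 of 16 alternative settings (adjusted p up to 0.0998), with DESeq2 and without control library 1, control library 2 or labelled library 1 among them. The call of Mrps5 was lost in 4, those without control library 1 or 2 and without labelled library 1 or 3 (limma adjusted p up to 0.0597), and the other 3 held in all 16. Mrps6 rose from 48.9 to 54.6 FPKM (limma adjusted p = 0.00208) and Mrps17 from 8.97 to 10.1 FPKM (limma adjusted p = 0.00469). Exons of Mrps6 share 159 bases with Slc5a3 and those of Mrps24 share 226 with Urgcp. Both overlaps are on the same strand, so reads of these genes may be mixed too.

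The 2 most abundant genes of the small subunit did not pass. Mrps21 went from 83.0 ± 1.75 to 84.2 ± 2.15 FPKM (SD, n = 3 each; limma adjusted p = 0.607) and Mrps16 from 79.2 ± 1.68 to 84.1 ± 4.06 FPKM (limma adjusted p = 0.0973, and 0.0139 without labelled library 2). Mrps14 was at 8.89 and 10.1 FPKM, a log2 change of 0.17, with an adjusted p of 0.0608 by limma, 0.0135 by edgeR and 0.0403 by DESeq2.

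Among the mitochondria-specific proteins of the small subunit, Mrps23 and Mrps26 were higher, Mrps33 was lower and the other 7 of 10 missed the threshold. The median log2 change was 0.02. Mrps23 went from 38.7 to 42.5 FPKM (limma adjusted p = 0.00358) and Mrps26 from 15.9 to 17.6 FPKM (limma adjusted p = 0.00733). Mrps35 was at 2.83 and 2.51 FPKM and did not pass (limma adjusted p = 0.0744), though it was called lower by edgeR on recovered reads (adjusted p = 0.0121). Over both subunits, 25 of 46 bacterial-type genes were higher and 2 lower, against 10 higher and 1 lower of 30 mitochondria-specific genes, with median log2 changes of 0.12 and 0.08. The difference between these classes was not tested.

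**Figure D4:**
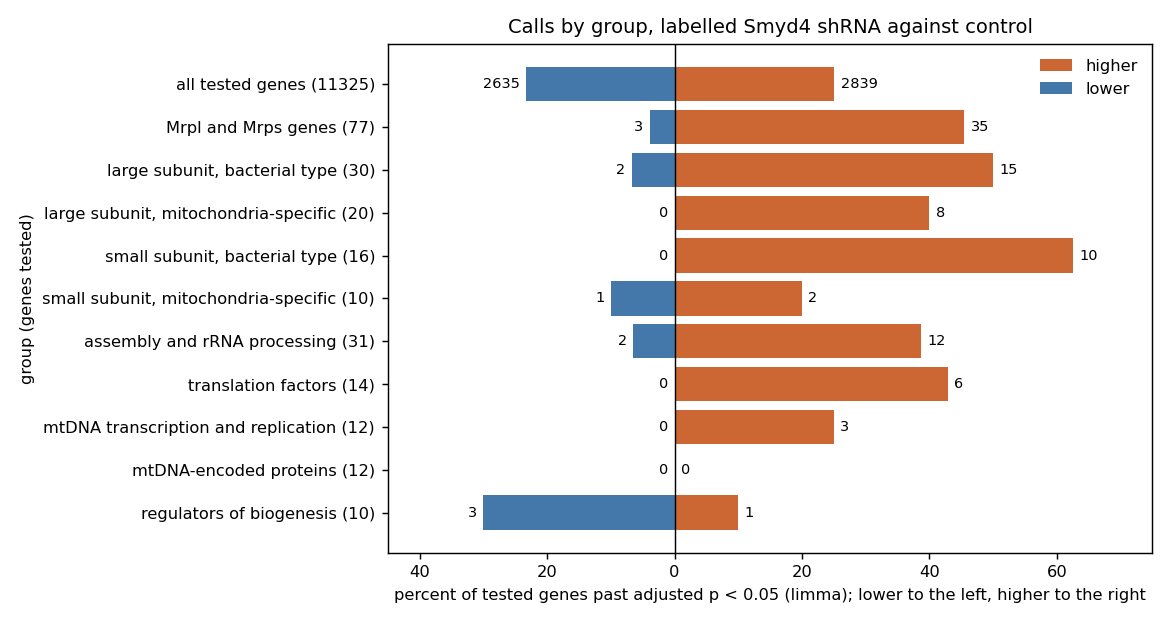
Percent of tested genes called higher (right, orange) or lower (left, blue) by limma in each group, with the number of genes tested in brackets and the number called beside each bar. All tested genes divide about evenly, at 25.1% higher and 23.3% lower, while the mitochondrial ribosomal protein genes have 35 higher and 3 lower.

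By structure, 50 of the genes belong to the large subunit, since Mrps30 and Mrps18a encode large-subunit proteins despite their names, and 26 belong to the small one. The counts were 23 higher and 2 lower in the large subunit (median log2 change 0.11) and 12 higher and 1 lower in the small subunit (median 0.12). The ratio of summed FPKM of large to small subunit genes was 2.29 ± 0.00454 in control and 2.34 ± 0.00736 in the labelled libraries (SD, n = 3 each). Without Mrpl42 the ratio was 2.03 ± 0.00405 and 2.05 ± 0.0022. The Mrps18 paralogs, related copies that sit at different places of the ribosome, did not pass: Mrps18a was at 10.5 and 10.7 FPKM (limma adjusted p = 0.704) and Mrps18b at 6.50 and 6.75 FPKM (limma adjusted p = 0.432). Mrps18c was at 7.07, 8.20 and 10.6 FPKM in control and 7.47, 6.88 and 7.76 FPKM in the labelled libraries, a log2 change of -0.20 (limma adjusted p = 0.229). Without control library 1 its change was -0.32 and passed (limma adjusted p = 0.042). Mrps36, assigned in later work to the 2-oxoglutarate dehydrogenase complex and not to the ribosome, was at 17.0 and 15.6 FPKM (limma adjusted p = 0.172).

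For the 39 genes that did not pass, 21 changes lay above 0 and 18 below, and the 95% interval lay within 1.25-fold in either direction for 37 of them. Calls by count models on the recovered reads were close in number. EdgeR called 35 higher and 4 lower, with 36 of its calls shared with limma, and DESeq2 called 30 higher and 2 lower, where over all genes edgeR called 49.5% and DESeq2 42.3%. The 3 tools shared 31 calls. The authors' deposited table of called genes lists 29 of the 77, 27 as higher and 2 as lower, and all 29 were called here in the same direction. Of all 22246 genes with FPKM it lists 11.6% as higher and 13.6% as lower. That base is unlike the 77, since it includes the many genes too low to be among the 11325 tested here. The 2 shares therefore cannot be compared directly. Exons of 29 of the 77 genes overlap another gene, and among the 48 with no overlap 21 were higher and 2 lower.

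Of the 5 mitochondrial ribosomal proteins whose genes carry other names, 2 rose, 1 fell and 2 missed the threshold, where 48.3% of all tested genes were called. Gadd45gip1, a large-subunit protein at the tunnel exit that is also known as a partner of GADD45 proteins, was at 3.32, 3.65 and 3.16 FPKM in control and 2.32, 2.24 and 2.07 FPKM in the labelled libraries. It fell by 0.52 on the log2 scale (SE 0.07, limma adjusted p = 0.000514), a larger change than that of any Mrp gene. In the small subunit, Chchd1 rose from 66.7 to 75.1 FPKM (limma adjusted p = 0.00487) and the GTP-binding protein gene Dap3 from 12.3 to 13.3 FPKM (limma adjusted p = 0.0154), a call lost without control library 3 (adjusted p = 0.0502). Ptcd3 (7.87 and 7.45 FPKM, limma adjusted p = 0.123) and Aurkaip1 (38.9 and 40.8 FPKM, limma adjusted p = 0.273, and 0.0267 without control library 3) did not pass.

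Of 31 genes tested that assemble the mitochondrial ribosome or process its rRNA, 12 were higher, 2 were lower and 17 missed the threshold. The share called, 45.2%, was near the 48.3% of all tested genes, with 38.7% higher against 25.1%. The median log2 change of the list was 0.06. Hsd17b10, a subunit of the enzyme that cuts mitochondrial tRNAs from their precursors, rose from 44.3 to 53.8 FPKM (limma adjusted p = 0.000225), and Rcc1l from 10.1 to 11.6 FPKM (limma adjusted p = 0.00229). Rbfa, which binds the small-subunit rRNA during assembly, fell from 13.2 to 11.8 FPKM (limma adjusted p = 0.00921), a call not made by DESeq2 (adjusted p = 0.15). The helicase gene Ddx28 fell from 7.68 to 6.36 FPKM (limma adjusted p = 0.0319), a call lost in 7 of the alternative settings, among them the fits without control library 1 or 2 and without labelled library 1 or 2. Of 14 translation factors tested, 6 were higher (42.9%) and 8 did not pass. The insertase gene Oxa1l rose from 15.0 to 17.6 FPKM (limma adjusted p = 0.0040), the mRNA-stability factor gene Lrpprc from 11.7 to 13.2 FPKM (limma adjusted p = 0.00401), and the elongation factor genes Tsfm from 19.0 to 21.2 FPKM (limma adjusted p = 0.00576) and Tufm from 43.8 to 50.6 FPKM (limma adjusted p = 0.00979).

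The products of the mitochondrial genome were set beside these nuclear genes. The large-subunit rRNA mt-Rnr2 rose from 146 to 170 FPKM (log2 change 0.22, limma adjusted p = 0.00183), and the small-subunit rRNA mt-Rnr1 was at 94.8 and 101 FPKM (limma adjusted p = 0.0685). Both rRNAs stood far below mt-Co1, given next. Whether library preparation kept or removed rRNA was not examined, so these are levels of the rRNA that was sequenced. Of the 13 proteins encoded by the mitochondrial genome, 12 were tested and 0 passed limma at the adjusted threshold, with 1 at an unadjusted p under 0.05, 2 called by edgeR and 1 by DESeq2. The most abundant, mt-Co1, was at 5417 and 5044 FPKM (limma adjusted p = 0.09, edgeR 0.00375, DESeq2 0.00304), and mt-Nd1 at 3308 and 3290 FPKM (limma adjusted p = 0.883). Labelled library 3 held the highest value of all 6 libraries for 10 of the 12. Of 12 genes that transcribe or replicate mitochondrial DNA, 3 were higher and 9 did not pass. Of all tested genes 25.1% were higher and 48.3% were called in either direction. The list was therefore near the background in its share of higher genes and below it in its share called. Twnk, the helicase, rose from 8.83 to 9.96 FPKM (limma adjusted p = 0.00477) but overlaps Mrpl43 on the opposite strand. Tfam, which packs and transcribes that genome, rose from 15.6 to 17.8 FPKM (limma adjusted p = 0.00704), and the polymerase subunit gene Polg2 from 1.08 to 1.52 FPKM (limma adjusted p = 0.0261). The Polg2 call was lost without control library 1 or 2 and without labelled library 1 or 2 (limma adjusted p = 0.0592 to 0.0861).

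Of 10 tested transcription factors and coactivators of mitochondrial genes, 1 rose, 3 fell and 6 missed the threshold. Esrra, the nuclear receptor ERR alpha that drives respiratory genes, fell from 20.0 to 12.7 FPKM, a log2 change of -0.65 (limma adjusted p = 6.93e-05). Myc fell from 21.7 to 19.2 FPKM (limma adjusted p = 0.00111) and the coactivator Ppargc1b from 1.67 to 1.19 FPKM (limma adjusted p = 0.028). The Ppargc1b call was lost without control library 1 or 3 and without labelled library 2 or 3 (limma adjusted p = 0.0549 to 0.0919). Gabpb2, a subunit of GABP, rose from 7.67 to 8.84 FPKM (limma adjusted p = 0.00307). Nrf1, Gabpa, which encodes the DNA-binding subunit of GABP, and Yy1 did not pass: Nrf1 was at 4.36 and 4.64 FPKM (limma adjusted p = 0.222), Gabpa at 13.7 and 13.8 FPKM (limma adjusted p = 0.881) and Yy1 at 38.2 and 38.2 FPKM (limma adjusted p = 0.961). Cytosolic ribosomal protein genes, fitted in the same model, had 56 of 79 higher and 23 below the threshold, and their median log2 change was 0.14. The difference from the mitochondrial set was not tested.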

How the data were processed

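RNA was extracted with Trizol and libraries were prepared by Illumina protocols, per the labels' protocols. TopHat2 2.0.9, Bowtie2 2.0.6 and build GRCm38 are named in the submitters' processing notes. For the counter, its annotation, its use of strand and the authors' test, the sources used here give nothing. The authors deposited FPKM for 22246 genes, and a second table of 5616 called genes with a normalized signal per library, lengths and coordinates, the authors' log2 fold changes and their p-values. Deposited FPKM equal reads divided by a size factor and by length, times a constant of 41.6, so whole reads could be recovered for 99.99% of values (tolerance 0.01 reads). Outside the authors' table the length was taken as the joined exons of the annotation where these gave whole reads, and otherwise as the smallest length that did, so such reads are lower bounds.

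Genes whose mean reached 1 FPKM were tested with limma 3.58.1 (R 4.3.3) on log2(FPKM + 0.5) with an intensity trend and Benjamini-Hochberg adjustment over all 11325 genes at a threshold of 0.05. EdgeR 4.0.16 and DESeq2 1.42.0 were run on the recovered reads as alternatives. Fits were also run on simulated data with far fewer changed genes than were called here, so that run does not bear on these calls. Groups came from the shRNA labels. Coordinates come from the authors' table or, for 48 genes, from the GENCODE M21 annotation of GRCm38. Genes named were Smyd4, the 12 largest rises and up to 8 falls past the threshold, the 5 highest and 3 lowest levels, the Mrps18 paralogs and up to 4 genes per list. Further genes were named after their values were seen. The members and lists were chosen with earlier results of these data known.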

Additional observations from a re-analysis of the deposited data

How the results depend on the processing

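Of the 38 genes called, 21 (19 higher and 2 lower) kept their call in all 16 alternative settings. The count of higher genes, 35, was 22 with no filter on low values, where 22246 genes shared the adjustment. Leaving out 1 library gave 20 to 36, with the 20 coming from the fits without control library 2 and without labelled library 1, each with 5 libraries. Those fits called 40.4% and 42.3% of all tested genes, against 48.3% in the main fit. Counts of lower genes among the mitochondrial ribosomal protein genes stayed between 2 and 4. Under quantile normalization the log2 change turned to 0.0464 for Mrpl35, to -0.0102 for Mrps21 and to 0.0075 for mt-Co1. Leaving out 1 library, Mrpl35 ran from -0.0586 (without control library 2) to 0.0132 (control library 1), with 0.0111 without labelled library 2. Mrps18a ran from -0.0037 (control library 1) to 0.0472 (control library 3), and mt-Nd1 from -0.0290 (labelled library 3) to 0.0181 (control library 3), with 0.0124 without labelled library 2. The cause was not tested. None of these changes passed in the main or the altered setting, but mt-Nd1 passed under quantile normalization (limma adjusted p = 0.0435). With the replicate block, 30 genes were higher, 3 lower and 5141 of all genes called. Libraries with the same number deviated from their group means with correlations of -0.03, 0.02 and 0.01. No deviation shared by number was seen, which cannot settle whether such libraries were prepared together. Smyd4 stayed between -0.04 and -0.10 and passed in no setting. The median log2 change of all genes moved by -0.0103 under median-of-ratios scaling and by 0.0223 under quantile normalization. It was then 0.0063 and 0.0390, with the median of the 77 genes at 0.0991 and 0.115. For 10 genes the recovered reads are a lower bound, which bears on their edgeR and DESeq2 values.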
